A study of Mus musculus with 12 samples.

Results

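Injured mice that were given antibodies against 2 leukocyte integrins were compared with uninjured mice in unsorted brain tissue. The comparison rests on 8 of the 12 RNA libraries of the series, 4 from each group, and leaves out the libraries of injured mice without antibody. Per the labels, all 12 were different male mice of the B6 strain aged 13 weeks, perfused with saline, and each gave a cube of tissue with 3 mm edges. Treated mice received the antibodies against LFA1 and VLA4 continuously and were taken on day 20 after a cerebrovascular injury. Neither a control antibody nor an antibody-treated uninjured group is named in the labels, so in these 8 libraries the injury and the antibodies cannot be told apart. The labels describe every cube as injured tissue, also for the uninjured mice, and name no brain region, so where the uninjured cube was cut is not given in the sources used here.

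LFA1 (the pair of Itgal and Itgb2) and VLA4 (Itga4 and Itgb1) are integrins on the surface of leukocytes. They bind ICAM and VCAM proteins on the vessel wall, which lets monocytes, neutrophils and lymphocytes stop in the blood stream and enter tissue. Blocking both therefore limits how many blood cells reach an injured brain, while microglia, the macrophages that live in brain tissue, need no such entry. After a vascular injury in the brain, macrophages clear blood and cell debris, astrocytes become reactive around the lesion and fibroblasts lay down collagen.

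Exon reads per library ranged from 15159988 to 15781229 in uninjured and from 13330379 to 13917157 in treated mice. Levels are given as normalised CPM, that is, the share of a gene in its library's exon reads, as CPM, after scaling the libraries to a common composition, always in the order of replicates 1 to 4. Markers of neurons (Snap25), myelin (Mbp) and astrocytes (Aqp4) were present in all 8 libraries, at 3038, 3011, 2919 and 3025 in uninjured and 2783, 2831, 2880 and 2765 in treated mice for Snap25. Replicate 3 of the treated mice differed from the rest of its group in the sign of a trend with transcript length and in intron share. In the other treated libraries, genes with short transcripts (up to 2036 exon bases) were raised against genes with long ones (from 5803 exon bases) by 0.282, 0.0942 and 0.630 on the log2 scale, measured as deviations from the mean of the 8 libraries. In treated replicate 3 the same difference was -0.338, and in the uninjured libraries it was -0.498, -0.0835, 0.0895 and -0.199. Intron reads made up 7.496% of its exon and intron reads, against 5.81% to 6.21% in the other treated libraries. Results are therefore also given without it, and "without replicate 3" below always means without this treated library. By the difference of short and long genes, it alone of the treated libraries lay within the uninjured range, and treated replicate 4 lay furthest from that range. Leaving out replicate 3 thus drops the treated library most like the uninjured ones in this trend. Larger counts without it are no separate support for a difference.

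**Figure D1:**
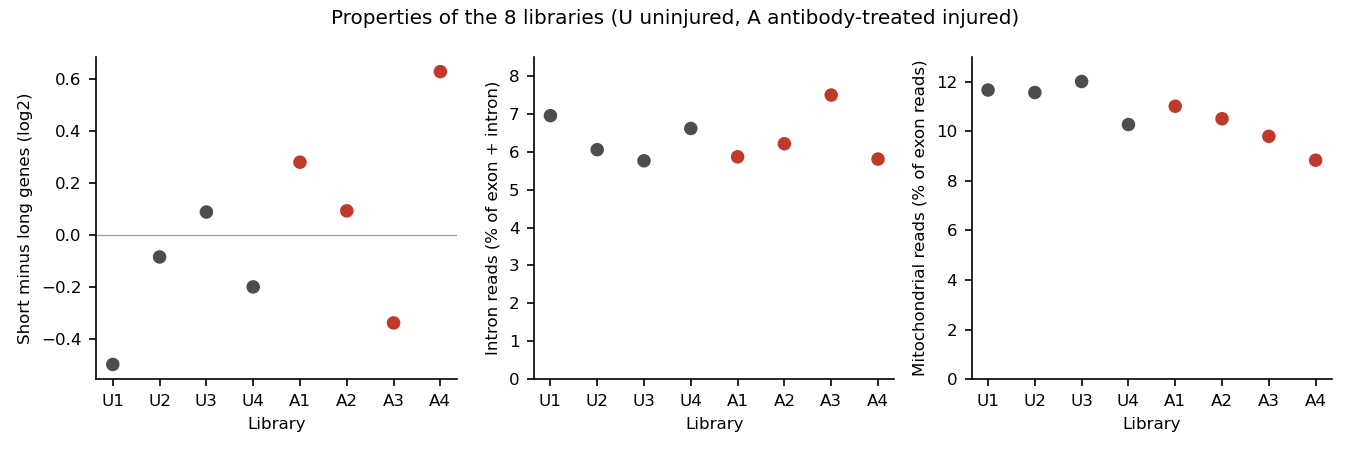
Each point is 1 of the 8 libraries, uninjured (U1 to U4, grey) or antibody-treated injured (A1 to A4, red). The left axis is the median log2 deviation of short genes minus that of long genes, the middle axis the share of intron reads and the right axis the mitochondrial share of exon reads, both in percent; A3 sits below 0 on the left at -0.338 and highest in the middle at 7.496%.

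The 4 treated mice were also much alike in some transcripts that are rare in brain. Reads from immunoglobulin variable segments numbered 202, 185, 191 and 182 in treated and 2, 5, 6 and 2 in uninjured libraries. A single segment, Igkv17-121, held 28.7%, 33.0%, 23.04% and 29.1% of them in the 4 treated libraries. Each B cell assembles its own pair of variable segments, so segment use is a record of which antibody-making cells are present. The labels call the libraries biological replicates, and whether they share tissue or RNA was not tested. The p-values measure the spread between these libraries, which may in part be technical.

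Of 14487 genes tested, 650 were higher in treated than in uninjured mice (4.49%) and 232 were lower (1.6%) at an adjusted p under 0.05 in edgeR's quasi-likelihood test. The 2 groups did not overlap in 2273 of the genes tested (15.7%), among them 877 of the 882 called ones. Rises were also the larger changes, with 275 genes at least 2-fold higher and 5 at least 2-fold lower. Those 5 were Tshr, Pkdrej and 3 transcripts with clone or predicted names, Gm14685, Gm3893 and AC124108.1. Without replicate 3, 1588 genes of 14609 were higher (10.9%) and 1439 lower (9.85%), and these included all 650 and all 232 of the genes named by the full set. Without treated replicate 4 instead, 559 were higher and 199 lower. The split between rises and falls depended on the scaling, with 73.7% of called genes higher as scaled here and 88.6% with library size alone. Once a trend with GC content and transcript length was removed from each library it was 37.0%, with 1007 of 14487 genes higher and 1713 lower. These counts over all genes, and those without replicate 3, are the background for list counts under the same settings below. Whether counting used strand is not given in the sources used here, so reads of overlapping genes cannot be told apart. This bears on the named genes Itga4, Spp1, Ctsd, C2, Cfb, Tap1, Ifitm2, Irf7, Irf9, Cxcl16, Cxcl10, Mmp12 and Ltbp3. It also bears on Igf2, Atp2a1, Tnnc2, Plin4, Alas2, Syn1, Shox2, Pmch, Otx2, Gpr17, mt-Nd6 and Kif4. With every gene that overlaps another left out, 562 of 11278 genes were higher and 231 lower. In bulk tissue, fewer cells of a type and less RNA per cell cannot be told apart.

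**Figure D2:**
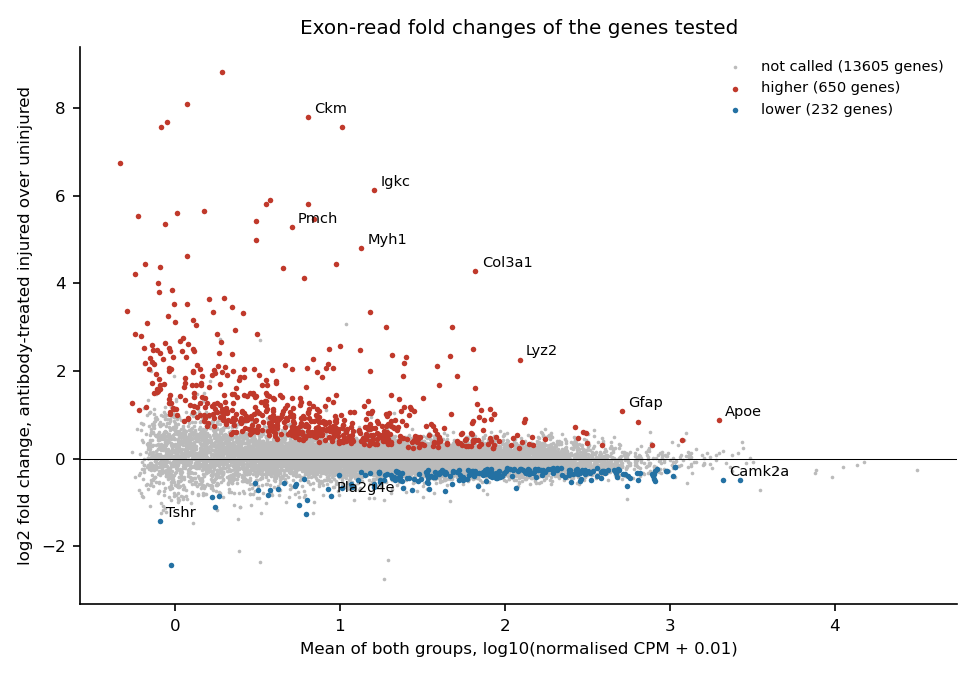
Each point is 1 of 14487 genes, with the mean level of both groups on a log10 axis and the log2 fold change of treated over uninjured mice on the vertical axis. The 650 higher genes (red) reach far above the 232 lower genes (blue), most of which lie within 1 log2 unit of 0.

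The RNA of the blocked receptors themselves was measured, although an antibody acts on the protein and RNA levels therefore do not check the treatment. Itgb2, the beta chain that LFA1 shares with the other leukocyte-restricted integrins, rose in treated mice. Its levels were 6.46, 6.51, 6.54 and 6.79 in uninjured and 13.6, 12.1, 12.2 and 11.8 in treated mice, and the groups did not overlap (log2 fold change 0.91 ± 0.08, adjusted p = 0.000246). The alpha chain of LFA1, Itgal, was at 1.2, 0.967, 0.992 and 1.53 in uninjured and 1.65, 1.75, 1.55 and 1.63 in treated mice and did not pass (log2 fold change 0.49 ± 0.19, adjusted p = 0.165). Neither chain of VLA4 passed, with a log2 fold change of -0.16, adjusted p = 0.677 for Itga4 and of 0.01, adjusted p = 0.961 for Itgb1. Among the ligands, Icam1 rose from 2.64 ± 0.295 to 5.25 ± 0.516 normalised CPM (SD, n = 4; log2 fold change 0.99 ± 0.13, adjusted p = 0.00191) with no overlap between groups. Vcam1 did not pass (log2 fold change 0.16 ± 0.07, adjusted p = 0.209). In the whole list of the blocked integrins and their ligands, 2 of 10 tested members rose and 0 fell, with or without replicate 3.

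Of selectins and other adhesion receptors, 3 of 12 tested members rose and 0 fell. These were Itgax, the alpha chain of a complement receptor found on dendritic cells and activated microglia (1.599 ± 0.237 to 5.17 ± 0.609 normalised CPM, SD, n = 4, log2 fold change 1.69, adjusted p = 0.000236), the hyaluronan receptor Cd44 and the integrin chain Itgb5 (49.9 ± 1.38 to 74.6 ± 4.97, log2 fold change 0.58, adjusted p = 0.00079). The selectins Sele and Selp were near absent, with a total of 1 read for Sele and 0 for Selp in the 4 uninjured libraries and 2 and 12 in the treated ones.

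Most tested genes in the list of monocytes and infiltrating macrophages were higher in treated mice. The list also holds genes of macrophages that live in the brain's borders, such as Mrc1, so it does not measure entry from the blood. Its members Itgal and Itga4 did not pass, as given above. Of 15 tested members, 10 rose and 0 fell, and 12 of 17 rose without replicate 3. The median log2 fold change of the list was 1.12, against 0.0051 over all genes tested. Lyz2, the lysozyme of myeloid cells, was at 38.7, 43.9, 45.9 and 41.1 in uninjured and 214, 199.5, 162 and 238 in treated mice, every treated library lying far above every uninjured one (log2 fold change 2.26 ± 0.12, adjusted p = 5.49e-06). Ccr2, the receptor that calls monocytes out of the marrow, was low but separated at 0.666, 0.5799, 0.331 and 0.399 in uninjured and 1.65, 1.82, 2.05 and 1.63 in treated mice (log2 fold change 1.84 ± 0.23, adjusted p = 0.00171). The membrane proteins Ms4a6c, Ms4a6d and Ms4a7 of monocytes and macrophages rose with log2 fold changes of 1.86, 1.46 and 2.38. Mrc1, the mannose receptor of macrophages at the brain's borders, rose from 4.16 ± 0.621 to 8.62 ± 1.01 (log2 fold change 1.05 ± 0.13, adjusted p = 0.00172). Reads for Ly6c2, a marker of inflammatory monocytes, totalled 1 in uninjured and 28 in treated mice, too few to enter the test.

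Neutrophil genes showed the same direction. Of 8 tested members 7 rose, and 7 of the 15 listed had too few reads to be tested. S100a9, a calcium-binding protein that makes up much of the neutrophil cytosol, was at 0.3999, 0.5799, 0.397 and 0.466 in uninjured and 5.03, 5.12, 3.18 and 5.47 in treated mice (log2 fold change 3.32 ± 0.24, adjusted p = 5.35e-05), and its partner S100a8 at 0.5999, 0.451, 0.264 and 0.133 in uninjured and 4.74, 2.94, 2.75 and 5.84 in treated mice (log2 fold change 3.45 ± 0.4, adjusted p = 0.000954). Ngp and Ltf encode granule proteins that neutrophils make before they leave the marrow. Ngp rose from 0.2299 ± 0.0815 to 1.49 ± 0.278 (log2 fold change 2.64, adjusted p = 0.000631) and Ltf from 0.0822 ± 0.0993 to 0.9296 ± 0.0644 (log2 fold change 3.37, adjusted p = 0.00526). Ly6g, the surface marker that defines mouse neutrophils, had 0 reads in all 8 libraries, which allows up to 3 reads in each group. Lcn2, which reactive astrocytes also make, was the most abundant of the list at 3.999, 3.74, 4.56 and 3.73 in uninjured and 22.1, 22.3, 18.5 and 26.9 in treated mice (log2 fold change 2.48 ± 0.13, adjusted p = 6.06e-06).

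Several antibody genes that were near 0 in uninjured mice were higher in treated mice, while the heavy chains Ighm and Ighg2c did not pass. Of 12 tested genes of B and plasma cells, 6 rose, and all 6 were antibody chains or Jchain, the peptide that joins secreted IgA and IgM. The kappa constant region Igkc was at 0.333, 0.515, 0.463 and 0.466 in uninjured and 33.3, 30.8, 24.4 and 39.4 in treated mice, a 71.9-fold difference of means (log2 fold change 6.14 ± 0.21, adjusted p = 3.16e-07). Ighg1, the heavy chain of IgG1, was at 0, 0.193, 0 and 0.1996 in uninjured and 19.96, 20.7, 13.8 and 27.2 in treated mice (log2 fold change 7.57 ± 0.44, adjusted p = 9.36e-06), so replicate 3 was the lowest treated library for both. Igkv17-121 (chr6:68036812-68037318, plus strand) had 58, 61, 44 and 53 reads in treated and 0 in every uninjured library, at least 78.2-fold higher against 3 reads over the uninjured group (counting error only). Ighv1-52 (chr12:115145487-115145919, minus strand) had 40, 30, 44 and 18 reads against 0, at least 47.8-fold higher on the same terms. Ighg3 was likewise at 0 in uninjured mice and at 1.65, 1.26, 1.13 and 2.52 in treated mice, at least 32.9-fold higher. Only part of the reads over these variable segments matched 1 place, 81.9% and 68.9%, so their split between related segments is uncertain. In all, 85 of 218 variable segments held a read in treated and 10 in uninjured libraries, and 15 of the 16 with at least 10 reads were present in all 4 treated mice.

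The heavy chain of IgM, Ighm, did not pass, at 36.9, 37.9, 39 and 34.7 in uninjured and 36.6, 36.1, 30.8 and 41.3 in treated mice, the groups overlapping (log2 fold change -0.04 ± 0.09, adjusted p = 0.805). Nor did Ighg2c, the heavy chain of IgG2c, at 2.799, 2.77, 2.91 and 2.396 in uninjured and 2.73, 2.73, 3.39 and 3.995 in treated mice, also with overlap (log2 fold change 0.24 ± 0.16, adjusted p = 0.368). Ms4a1 (CD20), a gene of B cells before they secrete antibody, was too rare to test, with 0 reads in uninjured and 14 in treated mice. Most markers of T and NK cells were also too rare to test. Of 24 listed, 4 had enough reads for edgeR's test and 0 passed (1 at an unadjusted p under 0.05, 1 lower by the Wald test of DESeq2 and 0 by limma voom), the summed level of the list being 27.5, 30.6, 33.8 and 27.9 in uninjured and 27.6, 28.7, 25.1 and 35.4 in treated mice. Those 4 were Cd4, Trbc2, Lck and Zap70. The T cell markers Cd3d, Cd3e and Cd8a were among those too rare to test. They had totals of 1, 3 and 2 reads in uninjured and 16, 5 and 5 in treated mice.

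**Figure D3:**
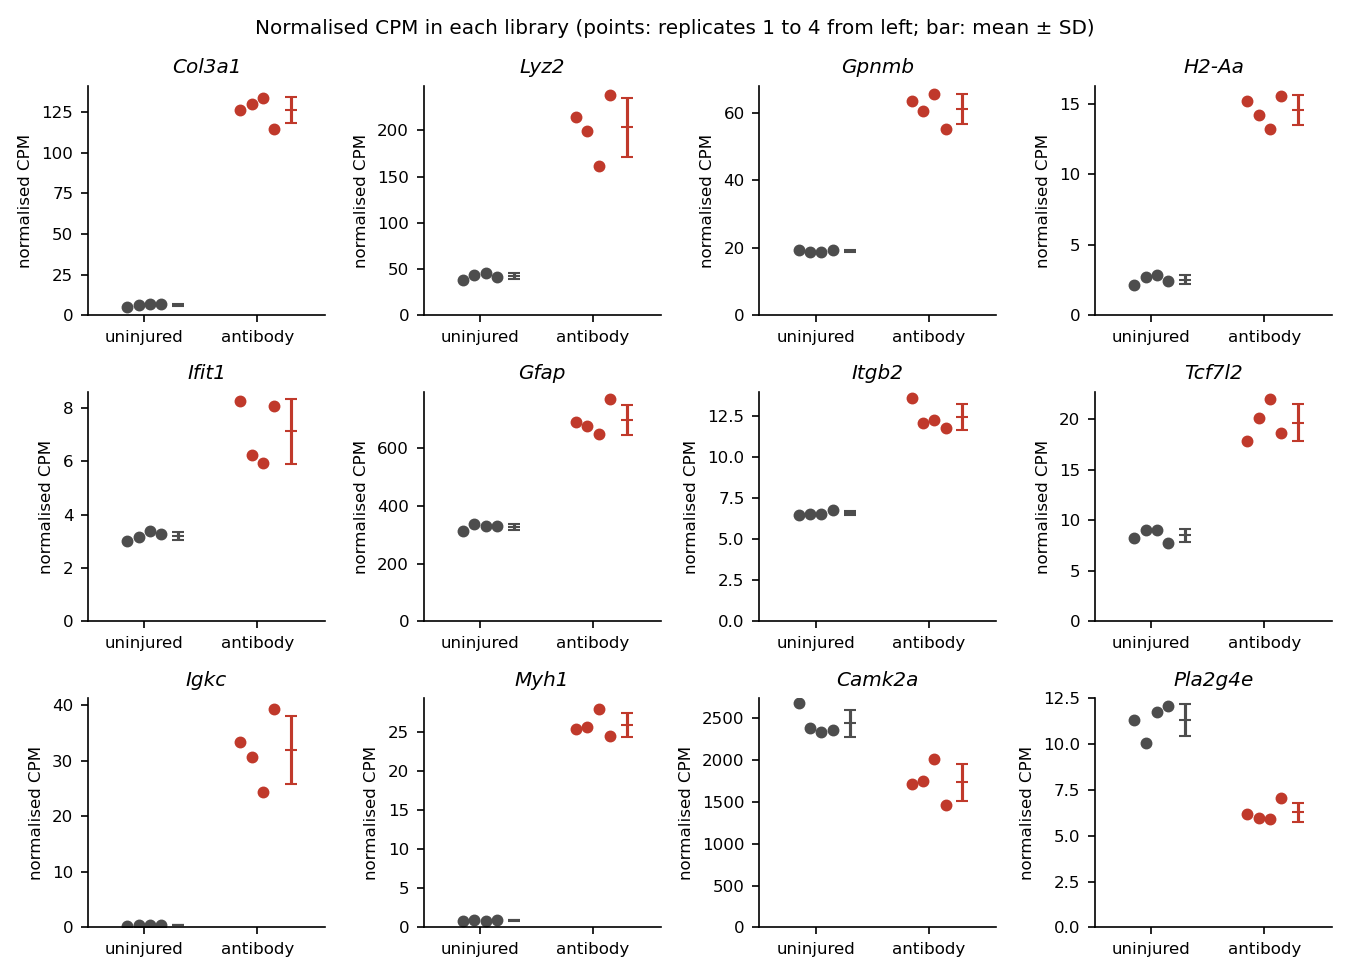
Normalised CPM of 12 genes in each library, with uninjured in grey and antibody-treated injured in red; points run from replicate 1 to 4 and the bar gives mean ± SD (n = 4). The groups are separate in all 12 panels, upward in 10 and downward for Camk2a and Pla2g4e.

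Microglia were followed with genes of their resting and activated state. The resting markers Tmem119, P2ry12, Cx3cr1 and Sall1 did not pass, with log2 fold changes of 0.29, -0.23, 0.15 and -0.2. In that list 4 of 14 members rose and 0 fell (among them Olfml3, Fcrls and Sparc), and macrophages, fibroblasts or vessels also express several of these. The activation list moved almost as a whole, with 20 of 25 members higher and 0 lower, a median log2 fold change of 1.01 and 21 higher without replicate 3.

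Gpnmb, a membrane glycoprotein of lipid-laden phagocytes, was at 19.5, 18.7, 18.8 and 19.4 in uninjured and 63.4, 60.5, 65.5 and 55.3 in treated mice, with little spread in either group (log2 fold change 1.68 ± 0.07, adjusted p = 1.29e-06). Spp1, the secreted protein osteopontin, was at 20.4, 20.6, 23.2 and 23.2 in uninjured and 82.8, 80.99, 73.4 and 85.4 in treated mice (log2 fold change 1.88 ± 0.08, adjusted p = 1.15e-06). Clec7a, a receptor for fungal glucans that marks activated microglia, rose from 3.08 ± 0.5601 to 13.8 ± 0.834 (log2 fold change 2.17 ± 0.13, adjusted p = 1.22e-05). Trem2 and its signalling partner Tyrobp, which microglia need to enter the activated state, both rose, from 14.9 ± 1.73 to 33.9 ± 7.57 (log2 fold change 1.18, adjusted p = 0.0023) and from 16.9 ± 1.96 to 37.3 ± 7.92 (log2 fold change 1.14, adjusted p = 0.00234). For these 2 short genes treated replicate 3 was the lowest of its group, at 25.3 and 27.7, and still above every uninjured library. Apoe, the main carrier of lipids in the brain, was the most abundant of the list at 1127, 1473, 1525 and 1421 in uninjured and 2541, 2330, 2048 and 3307 in treated mice (log2 fold change 0.88 ± 0.15, adjusted p = 0.00708). Axl, Csf1, Fabp5, Lpl and Igf1 did not pass, at log2 fold changes of 0.05, 0.1, 0.18, 0.31 and 0.41.

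Receptors that take up antibody-coated or damaged material followed the activation genes in part. Of 17 tested, 9 rose and 0 fell (11 without replicate 3). The Fc gamma receptors Fcgr2b, Fcgr3 and Fcgr4, which bind IgG, rose with log2 fold changes of 1.36, 0.75 and 2.28, as did their shared signalling chain Fcer1g (10.1 ± 0.889 to 20.8 ± 2.78, log2 fold change 1.04, adjusted p = 0.000689). Fcgr1, the high-affinity receptor, was at 3.67, 4.06, 4.098 and 5.19 in uninjured and 6.32, 6.17, 5.58 and 9.03 in treated mice and missed the threshold (log2 fold change 0.67, adjusted p = 0.0565). Cd36, a scavenger of oxidised lipids, Tlr2 and Cd14 rose, with log2 fold changes of 1.17, 1.51 and 1.09. Mertk and Lrp1, receptors for dying cells, did not pass, with log2 fold changes of -0.19 and -0.07.

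Lysosomal genes rose by smaller amounts. Of 25 members, 13 rose and 0 fell (16 without replicate 3), with a median log2 fold change of 0.32. The largest were the phagocyte marker Cd68 (12.6 ± 1.399 to 25.4 ± 2.67, log2 fold change 1.01, adjusted p = 0.000575) and the proteases Ctss, Ctsh, Ctsz, Ctsd and Ctsc, between 0.8 and 0.9. Ctss, which cuts the invariant chain of MHC class II, was at 87.05, 95.5, 99.5 and 86.4 in uninjured and 185, 167, 148 and 187 in treated mice, with no overlap (log2 fold change 0.9 ± 0.09, adjusted p = 0.000367). Ctsd overlaps a second annotated gene, Gm49369, and 16.5% of its reads matched 1 place. General lysosome membrane genes did not pass, with log2 fold changes of 0.1 for Lamp1 and 0.17 for Lamp2.

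Complement genes, which tag debris and synapses for removal, rose in 13 of 19 tested cases and fell in 0. C3, the central component, was at 10.8, 9.92, 11.2 and 8.85 in uninjured and 37.3, 38.4, 39.9 and 36.5 in treated mice, the groups wide apart (log2 fold change 1.9 ± 0.09, adjusted p = 1.89e-06). C4b was at 41.8, 39.9, 40.98 and 38.3 in uninjured and 91.9, 93.1, 103 and 93.3 in treated mice, with replicate 3 the highest treated library (log2 fold change 1.24 ± 0.06, adjusted p = 4.03e-06). The 3 chains of C1q, made by microglia, rose about alike, with log2 fold changes of 1.13 for C1qa, 1.02 for C1qb and 0.89 for C1qc. The inhibitor Serping1 also rose (8.42 ± 0.925 to 21.1 ± 1.397, log2 fold change 1.32, adjusted p = 5.35e-05). C2 and Cfb both overlap the annotated gene Gm20547 and only 26.2% and 8.86% of their reads matched 1 place, so their rises (log2 fold changes of 0.87 and 2.29) are uncertain.

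MHC class II, with which phagocytes and B cells show peptides to helper T cells, was among the lists with the largest change. Of 7 tested members 5 rose and 0 fell, and the summed level went from 27.5, 27.8, 30.9 and 29.4 in uninjured to 90.4, 85.6, 74.4 and 109 in treated mice. H2-Aa, the alpha chain, was at 2.13, 2.71, 2.84 and 2.46 in uninjured and 15.2, 14.2, 13.2 and 15.5 in treated mice (log2 fold change 2.52 ± 0.11, adjusted p = 1.89e-06). Its partner H2-Ab1 was at 1.93, 2.25, 2.45 and 2.66 in uninjured and 11.99, 10.8, 7.06 and 15.5 in treated mice (log2 fold change 2.28 ± 0.24, adjusted p = 0.000509) and the invariant chain Cd74 at 7.46, 6.57, 6.15 and 6.46 in uninjured and 33.2, 30.9, 30.1 and 43.6 in treated mice (log2 fold change 2.37 ± 0.14, adjusted p = 9.33e-06). In all 3 the treated libraries lay above the uninjured ones. Ciita, the switch of class II transcription, was below the test's minimum with 12 reads in uninjured and 33 in treated mice.

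MHC class I and peptide loading rose in 13 of 18 members and fell in 0 (16 without replicate 3), with a median log2 fold change of 0.88. H2-D1 was at 38.8, 48.3, 50.8 and 45.1 in uninjured and 104, 92.97, 84.3 and 111 in treated mice (log2 fold change 1.1 ± 0.11, adjusted p = 0.000389). B2m, the light chain of every class I molecule, rose from 93.6 ± 2.88 to 167 ± 29.2 (log2 fold change 0.84, adjusted p = 0.00232), the peptide transporter Tap1 from 2.903 ± 0.279 to 5.54 ± 0.762 (log2 fold change 0.93, adjusted p = 0.00346) and Nlrc5, the class I transactivator, from 0.904 ± 0.181 to 2.21 ± 0.633 (log2 fold change 1.28, adjusted p = 0.0163). Class I genes are near copies of each other, and 84.1% to 99.1% of the reads of H2-Q7, H2-Q6, H2-Q4, H2-D1 and H2-K1 matched 1 place.

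Genes induced by interferon, the signal that puts cells on alert against viruses, rose in 23 of 34 tested cases and fell in 0, and in 28 of 35 without replicate 3. Their median log2 fold change was 0.8. Ifit1, which binds foreign RNA, was at 2.999, 3.16, 3.37 and 3.26 in uninjured and 8.26, 6.24, 5.93 and 8.06 in treated mice (log2 fold change 1.15 ± 0.14, adjusted p = 0.00129). Bst2, which tethers budding virus to the cell, was at 3.599, 3.54, 4.63 and 3.39 in uninjured and 9.62, 8.197, 6.85 and 12.1 in treated mice (log2 fold change 1.27 ± 0.19, adjusted p = 0.00373). Ifitm2, a membrane protein against viral entry, rose from 7.72 ± 0.839 to 13.2 ± 1.41 (log2 fold change 0.78, adjusted p = 0.00346), with 32.6% of its reads matching 1 place. Ifit3 rose from 11.7 ± 1.304 to 18.9 ± 1.86 (log2 fold change 0.69, adjusted p = 0.00464), with 72% of reads unique beside its copy Ifit3b. Of the regulators, Irf7, Irf8 and Irf9 rose (log2 fold changes of 1.31, 0.79 and 0.64), while Irf1 and Stat2 did not pass (log2 fold change 0.25, adjusted p = 0.196 and log2 fold change -0.04, adjusted p = 0.732). Oasl2 (3.34 ± 0.387 to 8.22 ± 0.571, log2 fold change 1.29, adjusted p = 0.000206), Ifi27l2a (0.429 ± 0.1598 to 3.16 ± 0.656, log2 fold change 2.85, adjusted p = 0.000282) and Ifi204 (0.579 ± 0.172 to 3.12 ± 0.796, log2 fold change 2.42, adjusted p = 0.000625) had the smallest p of the list. Ifi204 was highest in replicate 3, at 4.31.

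Interferon acts through factors that bind pairs of GAAA. The promoters of the called interferon genes are shown because so many hold such a pair, written GAAANNGAAA, where N is any base, or its reverse complement. The 4 printed are those of the called genes with a match that had the smallest p. Each is the 250 bases before the start site, read on the gene's strand, from the RefSeq table for GRCm38.p6, with matches in capitals.
Ifit1: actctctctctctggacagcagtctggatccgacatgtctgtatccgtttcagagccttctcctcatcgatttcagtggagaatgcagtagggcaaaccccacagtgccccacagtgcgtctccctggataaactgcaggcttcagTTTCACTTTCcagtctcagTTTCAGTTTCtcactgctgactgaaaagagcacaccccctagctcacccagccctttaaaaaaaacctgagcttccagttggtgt
Ifitm2: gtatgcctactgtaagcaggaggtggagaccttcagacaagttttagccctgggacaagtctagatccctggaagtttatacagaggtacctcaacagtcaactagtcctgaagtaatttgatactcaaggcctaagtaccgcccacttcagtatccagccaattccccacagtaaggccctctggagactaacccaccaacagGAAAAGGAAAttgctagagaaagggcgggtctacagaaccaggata
Bst2: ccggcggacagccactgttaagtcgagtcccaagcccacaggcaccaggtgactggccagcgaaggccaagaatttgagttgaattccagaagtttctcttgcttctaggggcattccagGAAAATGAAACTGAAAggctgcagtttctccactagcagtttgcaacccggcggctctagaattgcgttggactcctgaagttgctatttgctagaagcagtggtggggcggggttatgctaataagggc
Ifit3: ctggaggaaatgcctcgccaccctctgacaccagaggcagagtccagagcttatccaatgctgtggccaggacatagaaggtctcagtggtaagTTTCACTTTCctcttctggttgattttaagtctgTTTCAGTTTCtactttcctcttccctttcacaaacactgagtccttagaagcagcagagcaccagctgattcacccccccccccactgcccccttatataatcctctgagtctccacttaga
They lie at chr19:34640639-34640888 on the plus strand (Ifit1), chr7:140955962-140956211 on the minus strand (Ifitm2), chr8:71537473-71537722 on the minus strand (Bst2, where the 2 matches overlap) and chr19:34583279-34583528 on the plus strand (Ifit3). Counted over the 250 bases before and 50 after the start, 12 of 17 called members found in that table held the pair (70.6%), as did 4 of 9 tested members that were not called (44.4%). Over all genes tested it was 407 of 11146 (3.65%). For MHC class I it was 2 of 12 called members (16.7%) and 2 of 3 tested members that were not called (66.7%). A match is a description of these letters and does not show that a factor was bound.

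Chemokines were mostly too rare to test, 9 of 25 having enough reads, of which 5 rose and 0 fell (7 of 11 without replicate 3). Cxcl16, a ligand held on the membrane of phagocytes, rose from 1.71 ± 0.212 to 5.48 ± 0.815 (log2 fold change 1.67, adjusted p = 0.00029), and Cxcl10, an interferon-induced chemokine, from 0.511 ± 0.207 to 2.05 ± 0.284 (log2 fold change 1.99, adjusted p = 0.00185). Ccl8, which attracts monocytes, was at 0.267, 0.193, 0.132 and 0 in uninjured and 2.37, 1.61, 1.06 and 2.22 in treated mice (log2 fold change 3.54 ± 0.49, adjusted p = 0.00255). Ccl2 had 14 reads in uninjured and 34 in treated mice, Il1b 25 and 51, Tnf 3 and 11 and Il6 3 and 4, none of which entered the test.

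Reactive astrocyte genes rose while those of resting astrocytes mostly did not pass. Of 24 tested reactive genes 12 rose and 0 fell (17 without replicate 3). Gfap, the filament protein of astrocytes, was at 312, 336, 331 and 329 in uninjured and 691, 677, 649.8 and 771 in treated mice, an increase in all 4 treated mice (log2 fold change 1.09 ± 0.06, adjusted p = 1.11e-05). Serpina3n, a secreted protease inhibitor, was at 31.3, 32.8, 32.6 and 32.9 in uninjured and 105, 102, 91.1 and 99.7 in treated mice (log2 fold change 1.62 ± 0.06, adjusted p = 9.08e-07). Vim, a second filament, rose from 57.1 ± 5.75 to 115 ± 15.8 (log2 fold change 1.01, adjusted p = 0.000629). Of 17 resting markers 1 rose (the gap junction gene Gjb6, log2 fold change 0.44, adjusted p = 0.0352) and 0 fell. The glutamate transporter Slc1a2 was at 3078, 2452, 2316 and 2574 in uninjured and 2052, 2194, 2529 and 1756 in treated mice, the groups overlapping (log2 fold change -0.29, adjusted p = 0.186). The water channel Aqp4 and the enzyme Aldh1l1 did not pass, with log2 fold changes of 0.16 and 0.08.

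Collagen genes showed some of the largest rises among well-measured genes. Col3a1, the collagen of loose connective tissue and young scar, was at 5.26, 6.64, 6.94 and 6.92 in uninjured and 126, 129.9, 134 and 115 in treated mice, 19.6-fold in the means (log2 fold change 4.29 ± 0.1, adjusted p = 2.83e-08). Col1a1 was at 11.5, 11.2, 9.39 and 10.5 in uninjured and 84.7, 84.4, 89.9 and 81.1 in treated mice (log2 fold change 3.0 ± 0.08, adjusted p = 6.01e-08) and Col1a2, the second chain of type I collagen, at 17.2, 19.6, 19.7 and 20.6 in uninjured and 105, 107, 112 and 113 in treated mice (log2 fold change 2.5 ± 0.07, adjusted p = 8.79e-08). In all 3 the treated libraries lay close together, replicate 3 included. Of 13 collagens, 8 rose and 0 fell, Col5a2, Col5a3, Col6a2, Col6a3 and Col14a1 being the others, with log2 fold changes from 0.74 to 1.46. Col5a1, Col6a1, Col8a1, Col12a1 and Col16a1 did not pass, with log2 fold changes between 0.13 and 0.28.

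Other proteins of scar and their modifying enzymes rose in 19 of 23 cases and fell in 0. The small proteoglycans that space collagen fibrils were among them. Dcn was at 17.2, 16.2, 18.5 and 18.4 in uninjured and 43.8, 49.3, 46.9 and 44.4 in treated mice (log2 fold change 1.39 ± 0.07, adjusted p = 5.91e-06), Lum at 3.999, 2.83, 3.24 and 3.39 in uninjured and 13.7, 11.1, 13.1 and 11.4 in treated mice (log2 fold change 1.87 ± 0.13, adjusted p = 3.56e-05) and Bgn rose from 17.4 ± 1.26 to 34.99 ± 1.598 (log2 fold change 1.0, adjusted p = 6.6e-05). Postn, the matrix protein periostin, was at 2.67, 2.38, 3.77 and 2.595 in uninjured and 18.6, 16.7, 17.6 and 15.4 in treated mice (log2 fold change 2.58 ± 0.14, adjusted p = 6.45e-06), and the crosslinking enzyme Lox rose from 0.874 ± 0.187 to 2.86 ± 0.0883 (log2 fold change 1.7, adjusted p = 0.000443). Fn1 rose less, from 43.6 ± 4.59 to 64.4 ± 9.93 (log2 fold change 0.56, adjusted p = 0.0219). Tnc, Fap, Ccn1 and Ccn2 did not pass (log2 fold changes of 0.36, 0.18, 0.02 and 0.28).

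Of 19 tested genes of matrix-cutting enzymes and their inhibitors, 10 rose and 0 fell. Mmp2, a gelatinase of fibroblasts, was at 3.73, 2.64, 2.18 and 3.13 in uninjured and 11.6, 12.1, 11.6 and 11.02 in treated mice (log2 fold change 1.99 ± 0.14, adjusted p = 5.18e-05). Mmp3 rose from 1.17 ± 0.173 to 4.88 ± 0.961 (log2 fold change 2.05, adjusted p = 0.000266), the macrophage elastase Mmp12 from 0.279 ± 0.119 to 1.95 ± 0.175 (log2 fold change 2.76, adjusted p = 0.000266) and the collagenase Mmp13 from 0.115 ± 0.0835 to 1.79 ± 0.214 (log2 fold change 3.86, adjusted p = 0.000389). Of the inhibitors in the list, Timp1 rose (0.674 ± 0.137 to 2.95 ± 0.969, log2 fold change 2.11, adjusted p = 0.00218), while Timp2, Timp3 and Timp4 did not pass (log2 fold changes of 0.19, -0.08 and 0.22).

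In basement membrane, the sheet of type IV collagen and laminin under vessel walls, no gene passed. Of 18 tested 0 rose and 0 fell by edgeR's test (4 were at an unadjusted p under 0.05, 1 rose by the Wald test of DESeq2 and 0 changed by limma voom). Col4a1 was at 40.7, 40.1, 36.4 and 45.5 in uninjured and 39.1, 39.4, 53.1 and 38.2 in treated mice (log2 fold change 0.06 ± 0.12, adjusted p = 0.743) and Lama2 at 17.5, 14.5, 15.01 and 15.6 in uninjured and 12.3, 13.5, 15.8 and 11.98 in treated mice (log2 fold change -0.22 ± 0.11, adjusted p = 0.246), the groups overlapping in both. Once the GC and length trend was removed, 4 of the 18 rose. TGF-beta ligands, the classical inducers of collagen, did not pass (log2 fold changes of 0.34 for Tgfb1, -0.07 for Tgfb2 and 0.26 for Tgfb3), nor did the receptors Tgfbr1 and Tgfbr2 (log2 fold changes of -0.02 and 0.27). In that list 3 of 20 rose, the latency proteins Ltbp2 (0.511 ± 0.113 to 1.32 ± 0.0983, log2 fold change 1.36, adjusted p = 0.00491) and Ltbp3 (log2 fold change 0.34, adjusted p = 0.016) and the secreted Tgfbi (5.95 ± 0.396 to 10.5 ± 1.396, log2 fold change 0.82, adjusted p = 0.00267).

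Markers of fibroblasts of the meninges and of vessel sheaths rose in 3 of 17 cases (7 higher and 1 lower without replicate 3). Slc47a1 was at 1.33, 1.61, 1.98 and 1.26 in uninjured and 3.81, 4.13, 5.79 and 3.85 in treated mice (log2 fold change 1.5 ± 0.2, adjusted p = 0.00225) and Aldh1a2, which makes retinoic acid, rose from 5.997 ± 0.415 to 8.96 ± 0.838 (log2 fold change 0.58, adjusted p = 0.00957). Igf2 rose with all reads (log2 fold change 0.46, adjusted p = 0.000689), but only 0.942% of its reads matched 1 place, and with unique reads alone the value was -0.55 (adjusted p = 0.487). The meningeal transporters Slc6a13, Slc22a6 and Slc13a4 did not pass (log2 fold changes of 0.3, 0.34 and 0.21). Genes of bone and of skeletal muscle, described next, moved in the same direction as collagens and neutrophil genes. The summed level of the bone list was 133, 133, 128 and 139 in uninjured and 184, 192, 187 and 187 in treated mice, that of the muscle list 166, 188, 209.9 and 182 and 386, 363, 328 and 447. The bone sum includes Spp1, also in the list of activated microglia and macrophages. By its levels given above, Spp1 alone rose by about as much as the whole bone sum, so that sum does not follow the other bone genes. The part of bone and muscle genes in the collagen and neutrophil results was not tested.

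Skeletal muscle genes, which brain tissue hardly expresses, rose in 20 of 25 cases and fell in 0. Myh1, a myosin heavy chain of fast fibres, was at 0.867, 0.967, 0.859 and 0.998 in uninjured and 25.4, 25.7, 28.02 and 24.5 in treated mice (log2 fold change 4.8 ± 0.11, adjusted p = 2.77e-08). Ckm, the muscle creatine kinase, was at 0, 0.0644, 0 and 0.133 in uninjured and 12.6, 12.3, 11.1 and 15.2 in treated mice, from 3 reads in all uninjured libraries to 715 in treated ones (log2 fold change 7.79 ± 0.33, adjusted p = 1.29e-06). Atp2a1, the calcium pump of fast fibres, rose from 0.826 ± 0.167 to 18.2 ± 1.44 (log2 fold change 4.45, adjusted p = 1.74e-07) and the troponin Tnnc2 from 0.116 ± 0.146 to 7.45 ± 2.84 (log2 fold change 5.91, adjusted p = 0.00029). The slow-fibre genes Myh7 and Tnnc1 did not pass (log2 fold change -0.04, adjusted p = 0.856 and log2 fold change -0.19, adjusted p = 0.609). Tnnt1, a troponin that slow fibres share, is counted in the thalamus list and was called higher.

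Of 16 tested genes of bone and cartilage 7 rose, and Spp1 and Ctsk among them are also made by macrophages. Bglap, the osteoblast protein osteocalcin, was at 0 in every uninjured library and at 1.51, 2.87, 0.988 and 1.701 in treated mice, at least 35.8-fold higher against 3 reads over the group. Its reads are shared with near copies (43.4% matched 1 place). Ibsp, bone sialoprotein, was at 0.0667, 0.258, 0.198 and 0.1996 in uninjured and 1.22, 1.05, 0.706 and 1.41 in treated mice (log2 fold change 2.54 ± 0.37, adjusted p = 0.0036) and the cartilage protein Comp at 0.267, 0.322, 0.264 and 0.532 in uninjured and 1.15, 1.47, 1.2 and 2.15 in treated mice (log2 fold change 2.08 ± 0.32, adjusted p = 0.00477). The osteoblast regulators Runx2 and Sp7 did not pass (log2 fold change -0.2, adjusted p = 0.234 and log2 fold change -0.06, adjusted p = 0.848). In skin 1 of 7 tested genes rose (Cdh1, log2 fold change 1.04, adjusted p = 0.00782) and the keratin Krt14 had 0 reads in uninjured and 1 in treated mice. In fat 2 of 4 rose (Fabp4 and Plin4, 2.17 and 0.72 as log2 fold changes), and Adipoq, which defines fat cells, had 3 reads and 1.

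Hemoglobin genes were higher in treated mice even though all mice were perfused. Hbb-bs was at 13.2, 15.9, 17.1 and 14.8 in uninjured and 79.98, 74.9, 56.6 and 100.1 in treated mice, replicate 3 the lowest of its group and still above the uninjured libraries (log2 fold change 2.35 ± 0.17, adjusted p = 4.47e-05). Hba-a1 and Hba-a2 rose too (log2 fold change 2.32, adjusted p = 0.000346 and log2 fold change 2.11, adjusted p = 0.000282), as did Hbb-bt and the red cell heme enzyme Alas2 (0.396 ± 0.195 to 2.21 ± 0.426, log2 fold change 2.45, adjusted p = 0.00139). The alpha globins are near copies, with 33.6% and 15.6% of reads unique. Together 5 of 7 tested genes of red cells rose. Platelet genes were rare, and Pf4, which macrophages also make, was the 1 of 4 tested that rose (0.544 ± 0.124 to 1.33 ± 0.406, log2 fold change 1.27, adjusted p = 0.0302).

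Genes that deal with iron and heme moved both ways, 2 of 18 rising and 2 falling (9 and 3 without replicate 3). Hmox1, which breaks heme down, rose from 4.87 ± 1.06 to 9.57 ± 0.826 (log2 fold change 0.97 ± 0.15, adjusted p = 0.00464), and Slc11a1, an iron transporter of phagosomes, from 3.46 ± 0.574 to 6.91 ± 1.196 (log2 fold change 1.0, adjusted p = 0.00597). Tfrc, the transferrin receptor through which vessels and neurons take up iron, fell. It was at 159.7, 136, 126 and 149.8 in uninjured and 85.4, 88.98, 102 and 85.3 in treated mice, every treated library below every uninjured one (log2 fold change -0.66 ± 0.09, adjusted p = 0.00267). The iron exporter Slc40a1 also fell (15.1 ± 1.15 to 10.8 ± 1.07, log2 fold change -0.48, adjusted p = 0.0206). The ferritin chain Fth1 was at 2029, 2511, 2716 and 2308 in uninjured and 3095, 2852, 2233 and 4287 in treated mice, and overlapped (log2 fold change 0.38, adjusted p = 0.225).

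Most endothelial and barrier genes tested did not pass. Of 20 tested, 3 rose and 5 fell without replicate 3, where 10.9% and 9.85% of all genes tested were called. With all libraries 0 rose and 3 fell, where 4.49% and 1.6% of all genes tested were called higher and lower. Besides Tfrc these were the transporters of thyroid hormone and organic anions Slco1c1 and Slco1a4, at 74.7, 70.9, 70.5 and 70.1 in uninjured and 57.1, 60.3, 59.9 and 49.04 in treated mice (log2 fold change -0.34 ± 0.08, adjusted p = 0.0298) and at 74.6, 60.6, 60.2 and 64.6 in uninjured and 46.7, 48.7, 49.5 and 40.9 in treated mice (log2 fold change -0.48 ± 0.09, adjusted p = 0.0141). The tight junction gene Cldn5 was at 29.5, 40.7, 44.7 and 38.1 in uninjured and 56.5, 52.9, 44.05 and 80.5 in treated mice and did not pass (log2 fold change 0.61, adjusted p = 0.0906). Pecam1, Cdh5 and Slc2a1 gave log2 fold changes of 0.04, -0.16 and 0.09. Pericyte genes Pdgfrb and Rgs5 did not pass (log2 fold change 0.03, adjusted p = 0.848 and log2 fold change -0.15, adjusted p = 0.283), and 2 of 16 in that list rose, Anpep (4.19 ± 0.396 to 9.63 ± 0.891, log2 fold change 1.2, adjusted p = 0.000266), which macrophages share, and Des (3.04 ± 0.912 to 9.46 ± 1.93, log2 fold change 1.63, adjusted p = 0.0026), which skeletal muscle shares. Of 18 genes of vessel growth 1 rose, Angpt2 (1.57 ± 0.121 to 2.92 ± 0.749, log2 fold change 0.89, adjusted p = 0.0354), while Vegfa gave a log2 fold change of 0.01, adjusted p = 0.942.

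**Figure D4:**
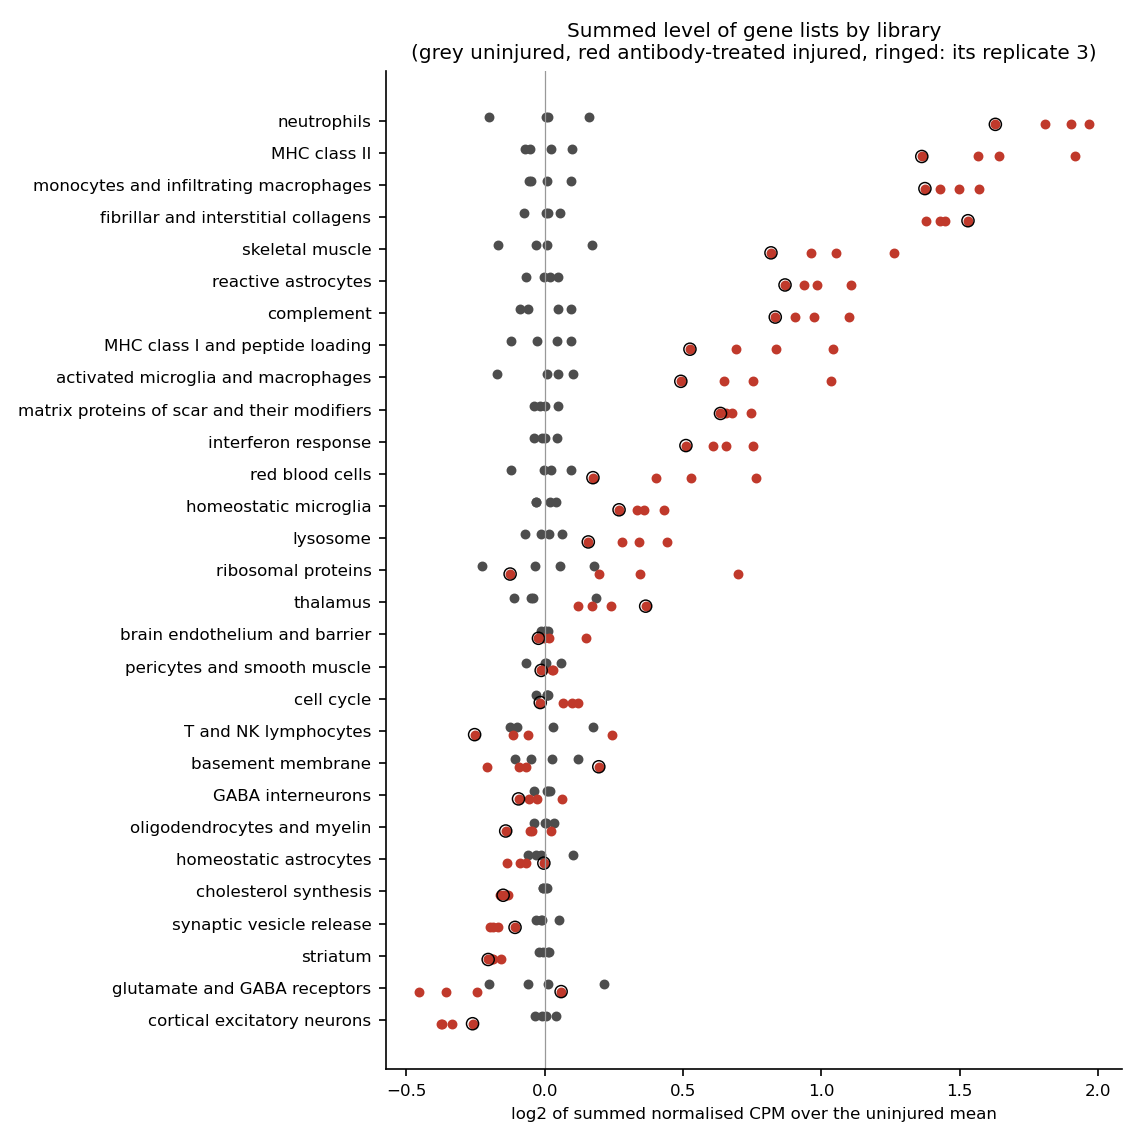
Each row is a gene list and each point a library, placed at the log2 ratio of its summed normalised CPM to the uninjured mean, with uninjured in grey, treated in red and treated replicate 3 ringed. Neutrophil, MHC class II, monocyte and collagen lists lie highest with no overlap between groups, ribosomal proteins and endothelium overlap, and cortical excitatory neurons lie below 0 with no overlap.

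The neuronal genes that fell did so by small amounts. Camk2a, a kinase of excitatory synapses, was at 2684, 2385, 2339 and 2366 in uninjured and 1716, 1752, 2011 and 1464 in treated mice (log2 fold change -0.49 ± 0.09, adjusted p = 0.0141), a difference larger than the spread in either group. Slc17a7, the vesicular glutamate transporter of cortical neurons, was at 1003, 920, 940 and 831 in uninjured and 726, 654, 743 and 574 in treated mice (log2 fold change -0.45 ± 0.09, adjusted p = 0.0191). Tbr1, a transcription factor of deep cortical layers, was at 112, 108, 104 and 115 in uninjured and 87.02, 87.2, 89.4 and 87.7 in treated mice (log2 fold change -0.32 ± 0.05, adjusted p = 0.00749), and Cux2, of upper layers, fell from 77.1 ± 3.76 to 61.7 ± 3.34 (log2 fold change -0.32, adjusted p = 0.0187). In the list of cortical excitatory neurons 4 of 23 fell and 0 rose (9 fell without replicate 3, and 9 after correction for GC content and length), and the summed level was 6921, 6739, 6678 and 6555 against 5325, 5195, 5612 and 5179.

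The number of synaptic genes called depended on the libraries and the scaling. Of 23 genes of vesicle release, Syn1 fell with all libraries (523 ± 18.7 to 418 ± 24.8, log2 fold change -0.32, adjusted p = 0.0131), 11 fell without replicate 3 and 14 once the GC and length trend was removed. Of 25 glutamate and GABA receptor genes, Grm2 (39.7 ± 1.62 to 27.6 ± 1.75, log2 fold change -0.53, adjusted p = 0.00207) and Grm3 (52.7 ± 5.32 to 40.4 ± 3.29, log2 fold change -0.38, adjusted p = 0.037) fell with all libraries, 11 fell without replicate 3, and 10 fell and 2 rose once the trend was removed. Replicate 3 was often the highest treated library here. Gria2, a subunit of AMPA receptors, was at 544, 404, 337 and 417 in uninjured and 290.3, 330.3, 452 and 249.8 in treated mice (log2 fold change -0.36, adjusted p = 0.275), replicate 3 lying above the other treated libraries, and the part of its raised long transcripts was not tested. Of 20 interneuron genes 1 rose (Calb2, log2 fold change 0.71, adjusted p = 0.0225), and Gad1, Sst and Pvalb had log2 fold changes of -0.08, 0.09 and 0.16.

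Among markers of other brain regions, several of the thalamus, hypothalamus and habenula rose. Of 22 thalamic genes 12 rose and 0 fell, and 12 rose without replicate 3. The 12 called with all libraries include Cd44, which is also in the monocyte, reactive astrocyte and adhesion lists, Calb2, also in the interneuron list, and Tnnt1, a troponin that slow muscle fibres share. Tcf7l2, a transcription factor of thalamic neurons, was at 8.27, 9.02, 9.06 and 7.72 in uninjured and 17.8, 20.1, 21.9 and 18.6 in treated mice (log2 fold change 1.2 ± 0.1, adjusted p = 0.000109). Prkcd, a kinase of thalamic relay neurons, was at 34.7, 30.3, 30.5 and 33.7 in uninjured and 54.4, 51.6, 52.5 and 53.1 in treated mice (log2 fold change 0.71 ± 0.07, adjusted p = 0.00029). Slc17a6, the glutamate transporter that dominates below the cortex, rose from 29.1 ± 2.72 to 46.1 ± 2.77 (log2 fold change 0.66, adjusted p = 0.00148), and the thalamic factors Gbx2 and Shox2 from 0.2803 ± 0.0844 to 1.58 ± 0.261 (log2 fold change 2.46, adjusted p = 0.000574) and from 2.24 ± 0.365 to 5.75 ± 1.08 (log2 fold change 1.36, adjusted p = 0.002). All of these separated the groups without overlap.

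Of 11 tested genes of hypothalamus and habenula 3 rose. Pmch, which encodes melanin-concentrating hormone and is made in the lateral hypothalamus, was at 0.0667, 0.387, 0.331 and 0.1996 in uninjured and 9.26, 9.67, 7.98 and 12.9 in treated mice (log2 fold change 5.28 ± 0.3, adjusted p = 8.74e-06). Hcrt, the orexin gene of the same region, was at 0.0667, 0, 0.132 and 0 in uninjured and 3.09, 2.52, 1.98 and 4.14 in treated mice (log2 fold change 5.66 ± 0.53, adjusted p = 0.00028), and Irx1, a marker of the habenula, rose from 0.378 ± 0.107 to 0.823 ± 0.1204 (log2 fold change 1.1, adjusted p = 0.0427). Striatal genes Drd1, Drd2 and Penk did not pass (log2 fold changes of -0.03, 0.03 and -0.15), and 1 of 19 in that list fell with all libraries (Adcy5, log2 fold change -0.28, adjusted p = 0.0245). Without replicate 3 it was 4 lower and 2 higher. Once each library was corrected for GC content and length 9 were lower, against 1713 of 14487 over all genes. The summed level of the striatal list was 2278, 2328, 2331 and 2297 in uninjured and 2026, 2024, 2004 and 2067 in treated mice, lower without overlap. In hippocampus 0 of 15 genes changed by edgeR's test (4 at an unadjusted p under 0.05, 1 higher and 1 lower by the Wald test, 0 by voom). Without replicate 3 it was 3 higher and 2 lower, where 10.9% and 9.85% of all genes tested were called. In choroid plexus and ependyma 3 of 22 rose (8 without replicate 3), Kcne2, Aqp1 and Otx2, with log2 fold changes of 0.63, 0.55 and 0.54. Ttr, the most abundant of them, was at 874, 1097, 1192 and 989.5 in uninjured and 1457, 1306, 1017 and 1768 in treated mice (log2 fold change 0.42, adjusted p = 0.153). Region markers and neuronal genes thus changed together in the same libraries, and the part of the first in the second was not tested.

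Immediate early genes, switched on by neuronal activity within minutes, split. Npas4 fell (21.5, 26.3, 26.5 and 26.9 in uninjured and 18.6, 16.8, 17.6 and 19.5 in treated mice; log2 fold change -0.48 ± 0.09, adjusted p = 0.0154) and Btg2 fell (log2 fold change -0.29, adjusted p = 0.0466), while Klf2, which vessels also express, rose from 6.78 ± 1.02 to 13.5 ± 1.41 (log2 fold change 1.0, adjusted p = 0.00168), with Nr4a3 (log2 fold change 0.3, adjusted p = 0.0467) and Klf4 (log2 fold change 0.42, adjusted p = 0.0475). Fos, Egr1 and Arc did not pass, with log2 fold changes of 0.03, 0.06 and 0.17.

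Of 20 myelin genes 1 fell (Mal, a myelin membrane protein, 343 ± 6.34 to 269 ± 6.08, log2 fold change -0.35, adjusted p = 0.00258). Once the GC and length trend was removed 8 fell, against 1713 of 14487 over all genes. Mbp was at 2827, 3102, 3223 and 3011 in uninjured and 3155, 3085, 2760 and 3236 in treated mice (log2 fold change 0.01, adjusted p = 0.941). Of 12 precursor genes Gpr17 fell (log2 fold change -0.35, adjusted p = 0.0341) and Pdgfra gave a log2 fold change of -0.34, adjusted p = 0.18. Of 20 enzymes of cholesterol synthesis 1 fell, 7 without replicate 3 and 10 with the trend removed, and the summed level of that list did not overlap (1519, 1515, 1506 and 1505 against 1371, 1377, 1362 and 1352). Of 18 cell cycle genes 0 changed by edgeR's test with or without replicate 3, by the Wald test or by voom, and 0 had an unadjusted p under 0.05, Mki67 and Top2a giving log2 fold changes of -0.0030 and -0.23.

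The mitochondrial share of exon reads averaged 11.4 ± 0.761% in uninjured and 10.04 ± 0.945% in treated mice (SD, n = 4), a difference of -1.34 percentage points (exact permutation test over the 8 libraries, two-sided, p = 0.0857). Of 13 genes mt-Nd3 and mt-Nd6 rose (log2 fold change 0.43, adjusted p = 0.0253 and log2 fold change 0.33, adjusted p = 0.0219) and 0 fell. This depended on the processing, with 2 higher and 3 lower without replicate 3, 0 higher and 10 lower once the GC and length trend was removed, and 0 called in the model of all 12 libraries. Ribosomal protein genes, which are short, were at a summed 6483, 7898, 8588 and 7404 in uninjured and 9634, 8702, 6964 and 12330 in treated mice. Of 32, 0 passed edgeR's test with all libraries (9 at an unadjusted p under 0.05, 0 by the Wald test or voom), 20 rose without replicate 3, and 6 fell once the GC and length trend was removed.

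The largest falls among named genes were small in absolute level. Tshr, the thyrotropin receptor (chr12:91384563-91549808, plus strand), was at 1.33, 1.29, 1.06 and 0.998 in uninjured and 0.287, 0.2802, 0.565 and 0.592 in treated mice (log2 fold change -1.43 ± 0.28, adjusted p = 0.0176). Cep128, a protein of centrioles, lies next to it in the other direction (chr12:90998492-91384409, minus strand). Its levels were 8.06, 7.34, 7.87 and 10.2 in uninjured and 3.95, 4.76, 5.58 and 3.03 in treated mice (log2 fold change -0.95 ± 0.18, adjusted p = 0.0158). Pla2g4e, a phospholipase (chr2:120166412-120245335, minus strand), was better measured, at 11.3, 10.1, 11.8 and 12.1 in uninjured and 6.17, 5.96, 5.93 and 7.03 in treated mice (log2 fold change -0.85 ± 0.1, adjusted p = 0.000973), and Tmem132d, a membrane protein of neurons (chr5:127781630-128433077, minus strand), was the most abundant at 59.05, 54.8, 46.3 and 56.1 in uninjured and 32.02, 36.4, 36.1 and 25.7 in treated mice (log2 fold change -0.73 ± 0.12, adjusted p = 0.00629). Pkdrej (chr15:85814670-85821734, minus strand), Ly75 (chr2:60292103-60383303, minus strand), Kif4 (chrX:100625737-100727214, plus strand) and Usp43 (chr11:67854523-67922153, minus strand) had log2 fold changes of -1.1, -0.87, -0.86 and -0.82. All 8 stayed called without replicate 3, where 1439 genes were called lower. Tshr, Pkdrej, Cep128, Ly75 and Kif4 each lost their call when some other single library was left out. With replicate number as a block in the model, only Pla2g4e of the 8 stayed called (adjusted p = 0.0175 in edgeR's quasi-likelihood test).

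Reads over introns come mostly from RNA not yet spliced and gave a second, thinner readout of the same libraries. Of 10649 genes tested, 9 were higher (0.0845%) and 2 lower (0.0188%). Without replicate 3 it was 650 of 10736 higher (6.05%) and 411 lower (3.83%), and with any other single library left out between 1 and 5 higher and 0 to 2 lower. Among exon-called genes with an intron test, 167 of 225 higher ones had a positive intron value and 138 of 196 lower ones a negative value, the mice being the same. The 32 genes at least 2-fold higher by exon reads that had an intron test had a median log2 fold change of 1.19 by exon and 0.85 by intron reads, and 243 more had too few intron reads.

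Gfap rose by intron reads too (1.03 ± 0.14, adjusted p = 0.0103), as did Csf3r, the receptor of the neutrophil growth factor (0.97 ± 0.17, adjusted p = 0.0367), H2-Q7 (1.95 ± 0.34, adjusted p = 0.0424), the RNA-editing enzyme Apobec1 (1.82 ± 0.22, adjusted p = 0.00382) and Abhd12b (1.93 ± 0.32, adjusted p = 0.0365). Tshr fell, with intron reads of 87 in uninjured and 12 in treated mice (-2.62 ± 0.37, adjusted p = 0.0103). The other gene that fell was Mgat4a (-1.02 ± 0.18, adjusted p = 0.0367), whose exon reads gave 0.09. Trps1, Pbx3, mt-Co2 and mt-Nd3 were the remaining ones higher, with exon values of -0.28 for Trps1 and 0.14 for Pbx3. Mitochondrial genes have no introns, so what those reads are is not given in the sources used here. Cep128, Pla2g4e and Tmem132d did not pass by intron reads (-0.42 ± 0.22, adjusted p = 0.365, -0.22 ± 0.14, adjusted p = 0.459 and 0.11 ± 0.21, adjusted p = 0.849).

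**Figure D5:**
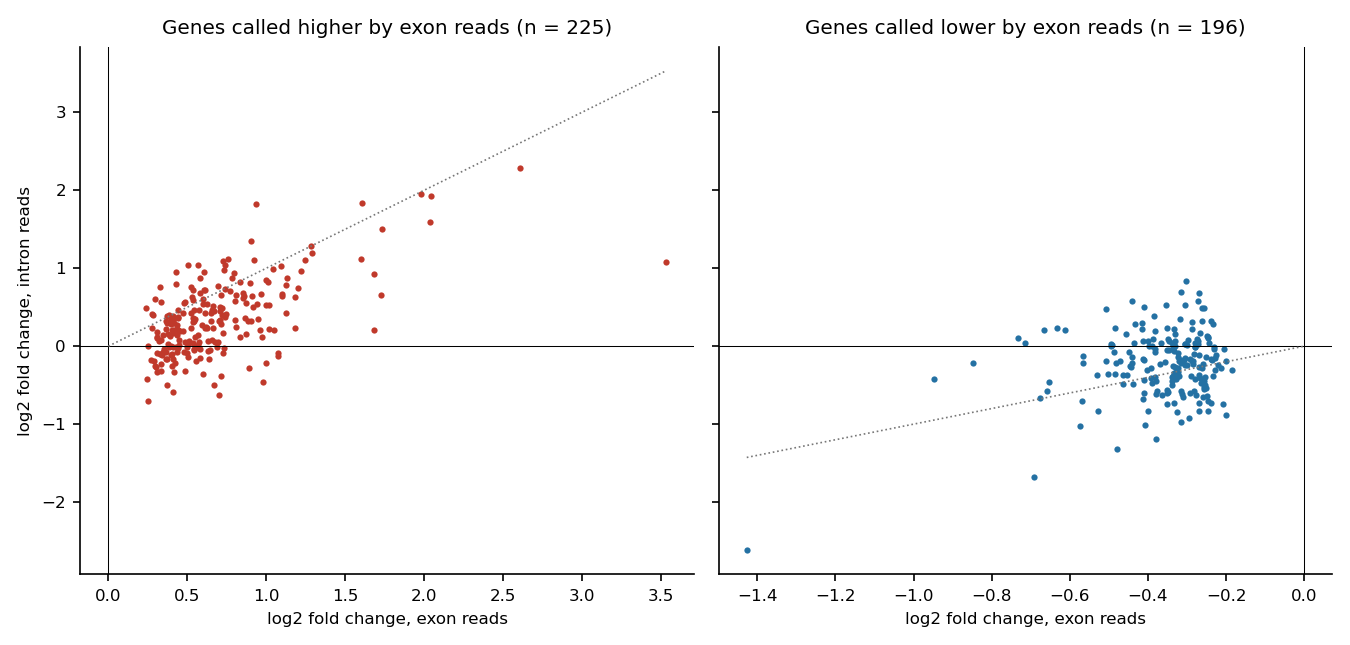
Each point is a gene called by exon reads that also had enough intron reads, 225 higher (left) and 196 lower (right), with the exon log2 fold change on the horizontal and the intron log2 fold change on the vertical axis; the dotted line marks equal values. On the left 167 points lie above 0 and on the right 138 lie below 0.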

How the data were processed

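RNA was extracted with a Qiagen kit and sequenced as stranded total RNA on a NextSeq550, per the labels' protocols. CASAVA 1.8.2, FastQC 0.11.8, Trimmomatic 0.39 and the GRCm38 build are listed, per the submitters' processing notes. No aligner, counter or use of strand is given in the sources used here. The authors deposited counts of exon, intron and uniquely matching reads per gene, and TPM (scaled to exon length), which served no test here. Total exon reads were the main values, and a gene was taken by its symbol.

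Genes with enough reads in 4 libraries (filterByExpr) were tested across the 8 libraries with edgeR 4.0.16 (TMM scaling, quasi-likelihood test, 6 residual degrees of freedom) in R 4.3.3, with Benjamini-Hochberg adjustment over all genes tested and a threshold of 0.05. Intron reads were tested in the same way. The alternatives were DESeq2 1.42.0 (size factors, Wald test), limma 3.58.1 (voom), library size alone, other filters, unique reads, all 12 libraries in the model, removal of a trend with GC content and transcript length (mgcv 1.9.3), a replicate block, and leaving out each library. The test was also run on simulated counts in which each gene varied independently of the others. These held no trend with GC content or transcript length, so they do not check the test against such a trend. Between 13330379 and 15781229 exon reads per library limit what can be seen of rare genes. Floors (3 reads over a group) cover counting error only. The value after ± is the standard error from the quasi-likelihood fit for a log2 fold change. For a level it is the SD of the 4 libraries of a group. No 2 libraries of a group held identical counts, and as the labels call them biological replicates they were counted as 4, although spread between libraries does not show that they came from separate RNA.

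Genes named are the 8 higher and 8 lower ones of largest change that passed, averaged at least 1 CPM in the higher group and did not overlap between groups, leaving out clone, predicted and pseudogene names, then the 3 called members of smallest p in each gene list with at least 3, then the blocked integrins with Icam1 and Vcam1. Other members of the lists appear as examples, and genes called by intron reads or at least 2-fold lower were named after their values were seen. The comparison and the gene lists were chosen with earlier results of these data known. Promoter sequences come from RefSeq (GRCm38.p6). The 4 libraries of injured mice without antibody were not analysed here beyond the model of all 12. A few list members count in the list totals and are not reported here by name.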

Additional observations from a re-analysis of the deposited data

Results flagged for a closer look

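In 306 groups of 4 libraries, 14 had a highest or lowest library far from the other 3, and chance gives about 1 in 20 such groups. Uninjured replicate 1 was the one that stood apart in 6 of them. It was low for Hba-a1 (5.132 normalised CPM, others 9.184 to 9.849), Npas4 (21.53, others 26.29 to 26.89) and the summed cell cycle genes (143.7, others 147.7 to 148.3). It was high for Slco1c1 (74.72, others 70.14 to 70.88), Camk2a (2684, others 2339 to 2385) and the summed precursor genes of oligodendrocytes (963.2, others 920.2 to 926.4). Ly75 was lowest in uninjured replicate 2 (2.062, others 2.181 to 2.2).

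Treated replicate 3 was high for Slc47a1 (5.788, others 3.805 to 4.134), Ifi204 (4.306, others 2.589 to 2.873), C4b (102.8, others 91.9 to 93.28) and Cux2 (66.7, others 59.52 to 60.44). Slc11a1 was highest in treated replicate 1 (8.687, others 6.14 to 6.494), Aqp1 lowest in treated replicate 2 (8.407, others 9.118 to 9.247) and the summed fat genes highest in treated replicate 4 (66.8, others 52.63 to 54.44).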

How the results depend on the processing

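Of 101 named genes 97 were called, and 72 of these lost no call over up to 23 alternatives. A setting that left a gene out was not counted as a lost call. A reversal was not counted either, so the 72 include Igf2, which did not pass with unique exon reads. Without treated replicate 3 no named call was lost, and DESeq2's size factors, voom, the robust spread and the model of all 12 libraries lost none either. The falls were less stable: Btg2 lost its call in 11, Slco1c1, Ly75 and Kif4 in 9, Cux2 in 8, Npas4 and Tshr in 6, and of the rises Irx1 lost it in 12 and Olfml3 in 7. The log2 fold change of Igf2 reversed with unique exon reads, to -0.5524.

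By exon reads, 650 genes were higher and 232 lower. Tested against a fold of 1.2 it was 349 and 19, and at least 2-fold 275 and 5. Once each library's trend with GC content and length was taken out, the counts were 1007 and 1713. Library size alone gave 111 lower, DESeq2's Wald test 604 and the model of all 12 libraries 476. Leaving out 1 library gave 406 to 1588 higher and 65 to 1439 lower, both highest without treated replicate 3. Without uninjured replicate 2, uninjured replicate 4 or treated replicate 1 it was 423, 420 and 406 higher. Without uninjured replicates 1 to 4 in turn it was 105, 65, 105 and 69 lower, and without treated replicates 1 and 2 it was 71 and 72.

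By intron reads, 9 were higher and 2 lower, against 15 higher with library size alone, 165 and 66 with no filter and 38 and 7 at 1 CPM in 4 libraries. Leaving out 1 library gave 1 to 650 higher and 0 to 411 lower. The causes of these shifts were not tested. The difference in mitochondrial share was -0.940 to -1.71 points with 1 library left out.

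Replicate numbers are shared by the groups, but same-numbered libraries did not deviate together (correlations of -0.247, -0.0645, -0.587 and -0.0344). Correlations between libraries of different number ranged from -0.614 to 0.651. With 4 libraries in each group, these values cannot show whether same-numbered libraries were processed together. With a replicate block it was 269 higher and 10 lower by exon reads, 0 and 0 by intron reads, and 765 lower when the trend was removed as well.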
